A study of Mus musculus with 12 samples.

Results

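Type I interferons are secreted antiviral proteins, and the genes that cells switch on in reply to them were followed here in mouse palatal shelves, the flaps that grow out and fuse into the palate. The embryos were of strain C57BL/6 and were taken at E13.5. The set held 38 genes, matched by gene symbol, of the 24391 symbols in the count files. It was chosen by measured levels of these same libraries: the genes were put together after interferon response genes had been seen to stand high in 1 library of each tamoxifen group, so their levels under tamoxifen are given below as a description, without a test. RNA came from 4 groups of 3 libraries: anterior palate of tamoxifen-treated mice, anterior palate of control mice, posterior palate of tamoxifen-treated mice and posterior palate of control mice. Tamoxifen is a selective oestrogen receptor modulator. The labels give neither its dose and time nor what the controls received, and they do not say whether the 3 libraries of a group, or the same-numbered libraries of different groups, came from separate embryos or litters. P-values therefore measure the spread between these libraries, which may be technical.

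As background, interferon alpha and beta bind the receptor pair Ifnar1 and Ifnar2, whose kinases Jak1 and Tyk2 phosphorylate Stat2 among others. Stat2 and Irf9 are part of a complex that binds the interferon-stimulated response element (ISRE) in front of its target genes. Many targets are parts of the same system (sensors of foreign nucleic acid, Stat2, Irf9 and Irf7), others are effectors that block viruses, and Usp18 and Socs1 switch the signal off. Interferon gamma acts at the shorter gamma-activated site (GAS) on Irf1 and the genes of class I antigen presentation among others. By role the set held 5 nucleic acid sensors, 5 signalling genes, 18 antiviral effectors, 4 ubiquitin and ADP-ribose enzymes and 6 genes of antigen presentation.

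The promoters of 4 members are shown as examples from the patterns of levels described below. Isg15, Ifit1 and Bst2 are among the genes that were high in 1 library of each tamoxifen group, and Trim25 is among those that were higher in every tamoxifen library. Each runs from 250 bases before to 50 bases after the gene's start, on the gene's own strand, in RefSeq's sequence of build GRCm38.p6. Capitals mark each match to the ISRE core GAAANNGAAA, or to its reverse complement TTTCNNTTTC. The Isg15 promoter is chr4:156200769-156201068 (minus strand), the Ifit1 promoter is chr19:34640639-34640938 (plus strand), the Bst2 promoter is chr8:71537423-71537722 (minus strand) and the Trim25 promoter is chr11:88999153-88999452 (plus strand).
Isg15: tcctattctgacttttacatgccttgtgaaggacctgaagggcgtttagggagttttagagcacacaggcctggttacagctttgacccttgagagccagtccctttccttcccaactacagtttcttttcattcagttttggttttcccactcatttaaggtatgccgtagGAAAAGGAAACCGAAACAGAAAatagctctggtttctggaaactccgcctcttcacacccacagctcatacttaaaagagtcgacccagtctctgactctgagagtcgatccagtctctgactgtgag
Ifit1: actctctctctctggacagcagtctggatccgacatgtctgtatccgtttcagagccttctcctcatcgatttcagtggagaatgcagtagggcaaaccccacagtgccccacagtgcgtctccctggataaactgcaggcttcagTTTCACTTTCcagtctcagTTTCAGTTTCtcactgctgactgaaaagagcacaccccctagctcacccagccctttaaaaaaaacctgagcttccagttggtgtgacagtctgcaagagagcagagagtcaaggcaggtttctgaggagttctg
Bst2: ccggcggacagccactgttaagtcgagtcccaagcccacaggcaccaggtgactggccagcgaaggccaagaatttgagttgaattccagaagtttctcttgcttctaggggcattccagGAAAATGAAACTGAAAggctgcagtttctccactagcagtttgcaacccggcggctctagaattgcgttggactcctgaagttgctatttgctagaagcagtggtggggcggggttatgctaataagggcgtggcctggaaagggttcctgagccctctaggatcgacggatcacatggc
Trim25: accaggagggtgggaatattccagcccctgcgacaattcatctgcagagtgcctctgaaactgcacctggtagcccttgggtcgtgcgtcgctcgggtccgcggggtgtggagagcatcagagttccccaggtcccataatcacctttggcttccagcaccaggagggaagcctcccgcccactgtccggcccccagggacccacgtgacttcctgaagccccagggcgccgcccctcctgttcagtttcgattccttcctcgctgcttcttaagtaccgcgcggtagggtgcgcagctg

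The Isg15 promoter held 3 overlapping matches in 1 block of 22 bases that began 78 bases before the start, and the Bst2 promoter held 2 overlapping matches in a block of 16 bases that began 130 bases before it. The Ifit1 promoter held 2 separate matches on the other strand, beginning 104 and 85 bases before the start, and the Trim25 window held none. Of the 29 members with an entry in the promoter table, 12 (41.4%) had a match on either strand: Ddx58, Ifih1, Eif2ak2, Stat2, Isg15, Ifit1, Ifit3, Oas1a, Oas3, Rsad2, Bst2 and B2m. Over all genes with a promoter entry 3.99% had one, and 3.44% of the 32851 promoter windows. A match was found in 6 of 9 members at least 2-fold above in replicate 1 of both tamoxifen groups, and in 6 of the other 20. This difference was not tested. Irf7, Oasl1 and Oasl2 of the 9 had 0 matches. Among members higher in every tamoxifen library of both parts, Ddx58 had 1, and Ifit2, Trim25 and Dtx3l had 0. The GAS core TTCNNNGAA, which reads the same on both strands, was found in 7 of the 29 members (24.1%), Irf1 and Psmb8 among them, against 9.55% of all genes. A match is a description of the letters in these windows, not a measured binding site.

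Total counts per library were 39.4 M to 73.0 M reads, and the deepest library by far was the anterior tamoxifen replicate 1 (the next had 50.2 M). Of all symbols, 15958 passed the expression filter, and 36 of the 38 members did (Zbp1 and Oas3 did not). Many members were rare: 9 of the 38 had a mean under 1 CPM (a library's counts scaled to a common library size by the TMM method), so that some single values below rest on fewer than 20 counts. The palatal mesenchyme markers Prrx1, Twist1, Osr2, Col1a1, Pdgfra, Tbx22 and Shox2 had counts in all 12 libraries. Replicate 1 of both tamoxifen groups stood apart from the other libraries of its group for many of the genes described here, and the counts of called genes are therefore also given without these libraries.

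The summed level of the 38 genes was 412, 275 and 291 CPM in anterior tamoxifen replicates 1, 2 and 3, against 263, 254 and 245 CPM in anterior controls. In the posterior palate it was 425, 266 and 264 CPM in tamoxifen replicates 1, 2 and 3, against 241, 239 and 239 CPM in controls. Replicate 1 of each tamoxifen group was thus 1.46 times (anterior) and 1.60 times (posterior) the mean of the other 2 libraries of its group, while the other 2 differed little from each other. The antiviral effectors showed the largest gap, with sums of 112, 54.4 and 54.2 CPM in anterior and 122, 43.5 and 40.7 CPM in posterior tamoxifen replicates 1, 2 and 3, against 38.6 to 44.4 CPM in anterior and 33.2 to 36.5 CPM in posterior controls. The gap was 2.06-fold and 2.89-fold for effectors, 1.49-fold and 1.52-fold for signalling genes, 1.25-fold and 1.54-fold for sensors, 1.40-fold and 1.58-fold for the ubiquitin and ADP-ribose enzymes, and 1.15-fold and 1.05-fold for antigen presentation, the anterior value given first in each pair. In bulk tissue, more cells of a kind and more RNA per cell cannot be told apart.

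**Figure D1:**
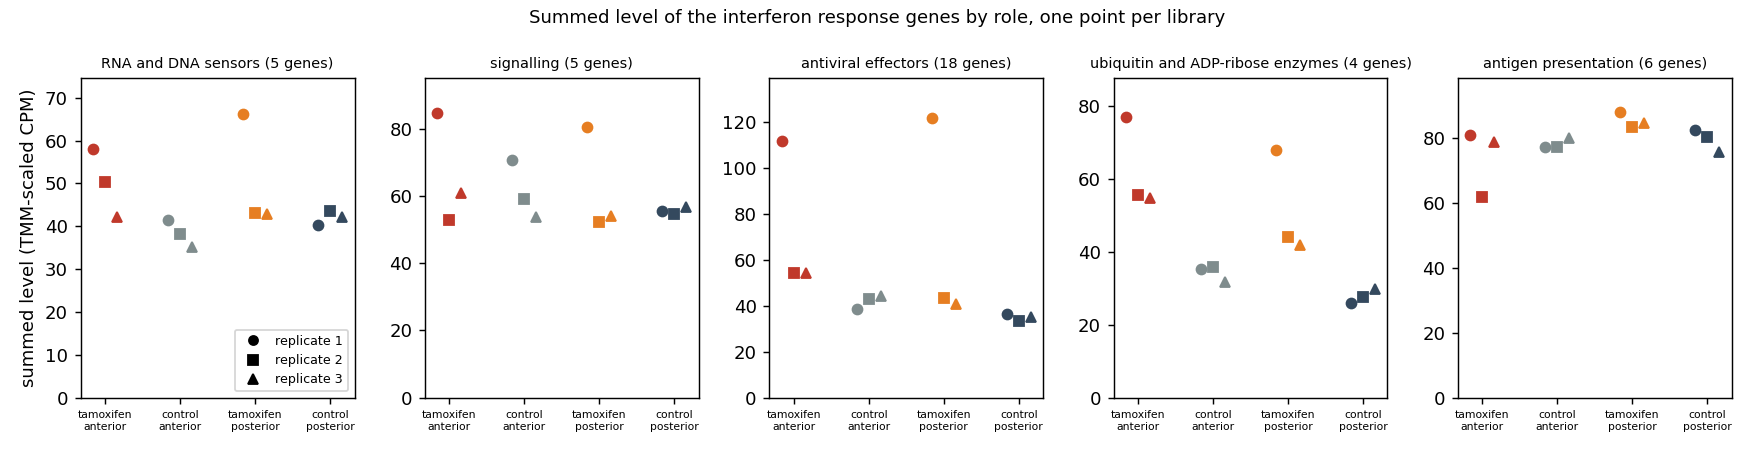
Summed level of the genes of each role (TMM-scaled CPM, linear axis from 0), 1 point per library, tamoxifen groups left of their controls and the marker shape giving the replicate number. Effectors reached 112 and 122 CPM in replicate 1 of the tamoxifen groups and at most 54.4 CPM in any other library, and antigen presentation lay between 61.8 and 88.0 CPM in all 12 libraries.

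Gene by gene, 17 of the 36 tested members were at least 2-fold above the mean of the other 2 libraries in anterior tamoxifen replicate 1, and 16 in posterior tamoxifen replicate 1. In each of the other 10 libraries between 0 and 2 members were. Over all genes tested, 0.978 to 2.11% per library were that far above. In both tamoxifen groups at once 14 of the 36 members were: Irf7, Usp18, Isg15, Ifit1, Ifit3, Mx1, Mx2, Oas1a, Oas2, Oasl1, Oasl2, Rsad2, Bst2 and Rtp4. Among all genes 75 of 15958 (0.470%) met the same condition. These values are of the kind that led to the choice of the set, and nothing is read from the contrast. For the 14 genes, replicate 1 over the control mean had a median of 4.48 (2.54 to 10.2) in the anterior and 6.80 (3.79 to 37.9) in the posterior palate. The other 2 tamoxifen libraries over the control mean had a median of 1.19 (0.647 to 1.62) and 1.16 (0.686 to 2.76), and 9 of the 14 were above the control mean in each part of the palate.

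**Figure D2:**
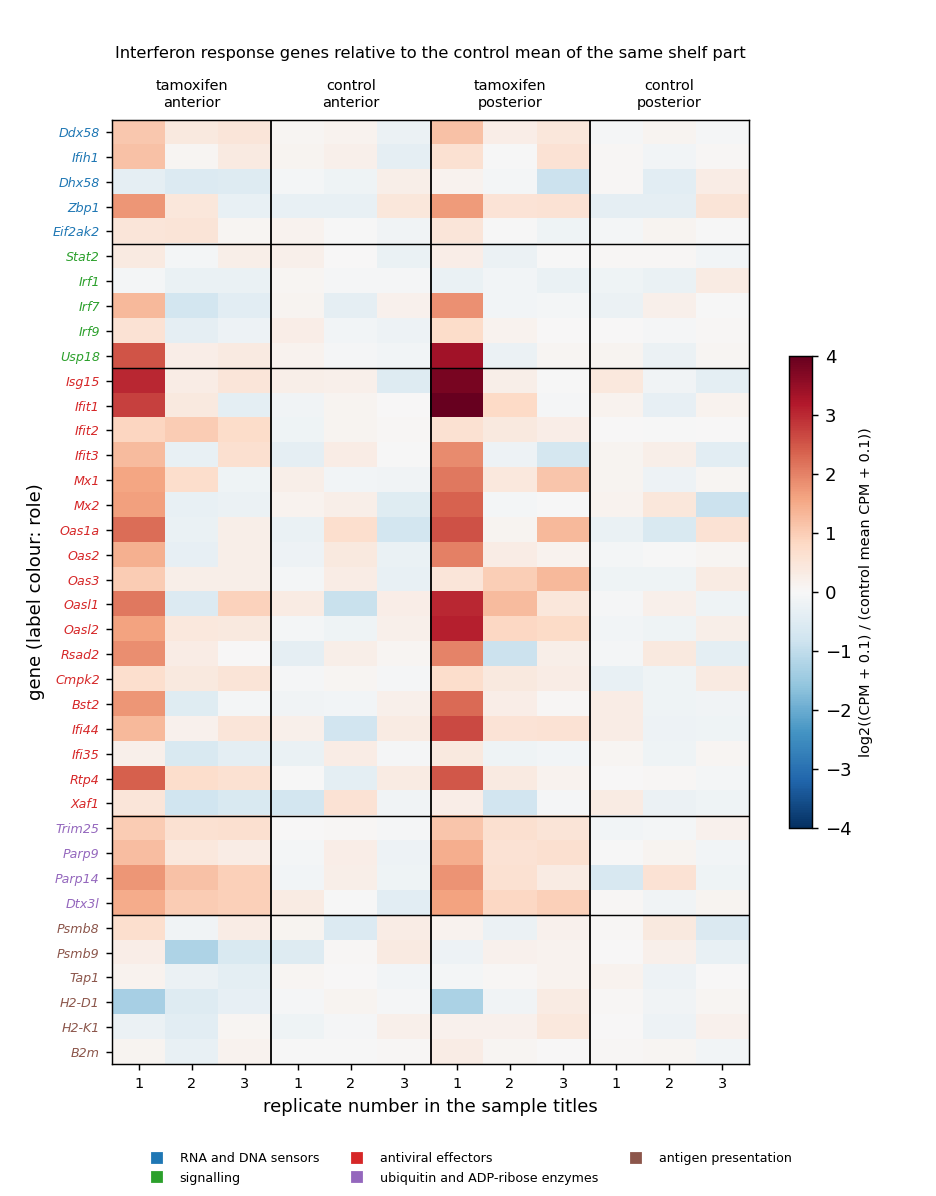
Heat map of log2((CPM + 0.1)/(control mean CPM + 0.1)) for the 38 genes (rows, grouped and coloured by role) in the 12 libraries (columns, numbered by replicate), the control mean being that of the same part of the palate. Replicate 1 of both tamoxifen groups is red for Irf7, Usp18 and most effectors, whereas Trim25, Parp9, Parp14 and Dtx3l are red in all 6 tamoxifen libraries and H2-D1 is blue in both replicates 1.

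Ifit1, a tetratricopeptide repeat protein that binds viral RNA lacking a methylated cap, had the largest gap. It was at 3.53, 0.604 and 0.311 CPM in anterior tamoxifen replicates 1 to 3, against 0.396, 0.484 and 0.445 CPM in controls, and at 5.43, 0.319 and 0.134 CPM in posterior tamoxifen replicates, against 0.168, 0.0955 and 0.166 CPM in controls. Behind the posterior values stood 278, 15 and 6 counts under tamoxifen and 8, 4 and 8 counts in controls. Replicate 1 lay far above every other library in both parts of the palate, and the other tamoxifen values overlapped the anterior controls.

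Isg15, a ubiquitin-like protein that is attached to other proteins, was at 3.54, 0.448 and 0.532 CPM in anterior tamoxifen replicates against 0.421, 0.411 and 0.211 CPM in controls. In the posterior palate it was at 5.14, 0.340 and 0.268 CPM under tamoxifen against 0.400, 0.239 and 0.187 CPM in controls. Again 1 library per tamoxifen group was high, 7.23 and 16.9 times the mean of the other 2. Usp18, the protease that removes Isg15 from proteins and also blocks the interferon receptor, was at 5.74, 1.14 and 1.22 CPM in anterior tamoxifen replicates against 1.04, 0.895 and 0.843 CPM in controls. Its posterior values were 8.30, 0.595 and 0.758 CPM under tamoxifen and 0.778, 0.597 and 0.767 CPM in controls. Usp18 and Isg15 had the same library on top in both groups.

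Bst2, also called tetherin, which holds budding virus particles at the cell surface, was the most abundant effector per kilobase of transcript, with a mean of 15.3 CPM per kb. Its levels were 30.7, 6.47 and 8.63 CPM in anterior tamoxifen replicates against 8.15, 8.44 and 10.5 CPM in controls, and 34.8, 8.65 and 7.29 CPM in posterior tamoxifen replicates against 8.69, 6.25 and 6.40 CPM in controls. With 2283 and 1783 counts in the high libraries, its 4.07-fold and 4.37-fold gaps do not rest on low counts. Apart from replicate 1, the tamoxifen values fell within or close to the range of the controls.

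Oasl2, a relative of the oligoadenylate synthetases that sense double-stranded RNA, was at 12.2, 5.33 and 5.23 CPM in anterior tamoxifen replicates against 3.74, 3.53 and 4.59 CPM in controls. In the posterior palate it was at 14.1, 2.83 and 2.65 CPM under tamoxifen against 1.43, 1.36 and 1.82 CPM in controls. Unlike Ifit1 and Isg15, all tamoxifen libraries were above all controls in each part. Rtp4, a receptor transport protein that restricts some viruses, also had no overlap: 8.38, 2.53 and 2.37 CPM in anterior tamoxifen replicates against 1.49, 1.14 and 1.92 CPM in controls, and 9.71, 2.15 and 1.81 CPM in posterior tamoxifen replicates against 1.66, 1.69 and 1.55 CPM in controls. In both genes replicate 1 was the highest library, and the other 2 lay 1.21 to 1.78 times above the control mean.

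Mx2, a dynamin-like GTPase with antiviral action, was at 4.24, 1.03 and 1.09 CPM in anterior tamoxifen replicates against 1.44, 1.55 and 0.890 CPM in controls. Its posterior levels were 5.35, 0.893 and 0.937 CPM under tamoxifen against 1.05, 1.34 and 0.477 CPM in controls. Without replicate 1 the groups overlapped in both parts. Ifi44, an interferon-induced protein of the cytoplasm, was at 5.79, 2.57 and 3.24 CPM in anterior tamoxifen replicates against 2.67, 1.31 and 2.90 CPM in controls, and at 5.08, 1.11 and 1.14 CPM in posterior tamoxifen replicates against 0.926, 0.621 and 0.643 CPM in controls. Its anterior gap of 1.99 lay just under the 2-fold line that the 14 genes passed. The transcription factor Irf7, which carries the response to further interferon production, was at 3.37, 0.761 and 0.954 CPM in anterior tamoxifen replicates against 1.44, 1.02 and 1.52 CPM in controls, and at 3.63, 0.872 and 0.892 CPM in posterior tamoxifen replicates against 0.799, 1.12 and 0.953 CPM in controls. Replicates 2 and 3 of the anterior tamoxifen group lay below all 3 controls for Irf7.

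Among the rarer effectors, 6 had their highest level of each part of the palate in tamoxifen replicate 1. Oas1a, an oligoadenylate synthetase that starts RNA decay, was at 2.71, 0.403 and 0.599 CPM in anterior tamoxifen replicates against 0.396, 0.846 and 0.258 CPM in controls, and at 2.07, 0.298 and 0.803 CPM in posterior tamoxifen replicates against 0.210, 0.143 and 0.456 CPM in controls. Rsad2 (viperin), an enzyme that makes a chain-ending nucleotide, was at 1.84, 0.560 and 0.444 CPM in anterior tamoxifen replicates against 0.322, 0.532 and 0.468 CPM in controls, and at 3.32, 0.383 and 0.915 CPM in posterior tamoxifen replicates against 0.715, 1.03 and 0.560 CPM in controls. For both, replicates 2 and 3 overlapped the controls. Ifit3, Mx1, Oas2 and Oasl1 were at 1.05, 0.539, 1.14 and 1.10 CPM in anterior and at 1.86, 0.645, 1.48 and 1.93 CPM in posterior tamoxifen replicate 1, and all 4 were at 0.643 CPM or less in the other 10 libraries. Oas3, below the expression filter, had 28, 8 and 8 counts in anterior tamoxifen replicates against 5, 8 and 4 in controls, and 3, 6 and 8 counts in posterior tamoxifen replicates against 0, 0 and 2 in controls, so that replicate 1 was not the highest there. Cmpk2, a mitochondrial nucleotide kinase that neighbours Rsad2 in the genome, was at 6.42, 5.24 and 5.77 CPM in anterior tamoxifen replicates against 3.89, 4.26 and 3.89 CPM in controls, and at 6.66, 5.36 and 5.04 CPM in posterior tamoxifen replicates against 3.32, 3.60 and 5.28 CPM in controls. It had no overlap in the anterior palate and gaps of 1.17 and 1.28 for replicate 1. Ifi35, a partner of the interferon-induced protein Nmi, ranged from 2.48 to 4.98 CPM, and Xaf1, a promoter of apoptosis, from 0.361 to 1.33 CPM over the 12 libraries.

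**Figure D3:**
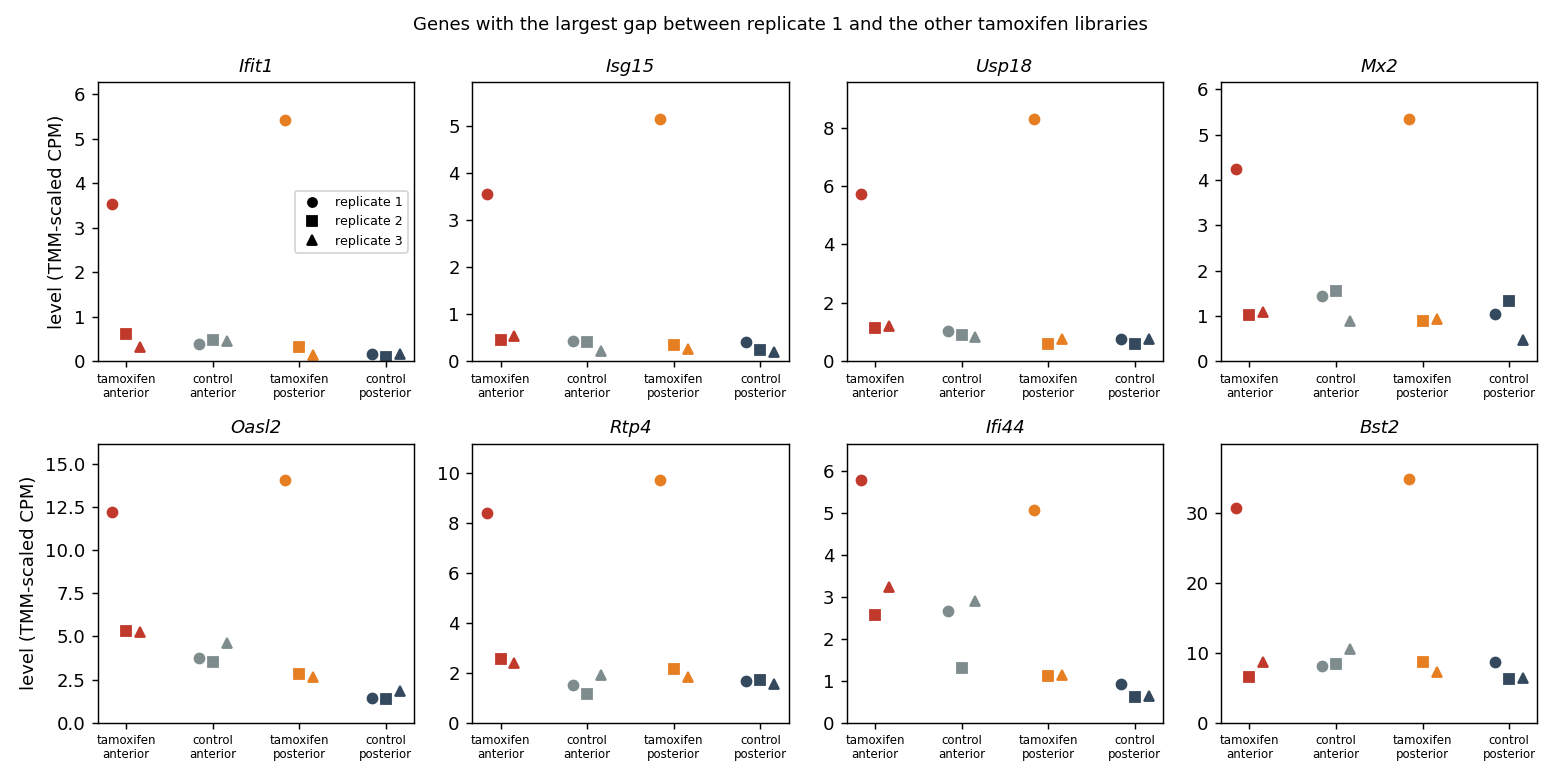
Level (TMM-scaled CPM, linear axes from 0) of the 8 genes with the largest gap among members with a mean of at least 1 CPM, 1 point per library. Replicate 1 (circles) of both tamoxifen groups is the top point in every panel, from 3.53 CPM for Ifit1 to 34.8 CPM for Bst2. The remaining tamoxifen libraries lie closer to the controls of the same part. They are still above all of these controls for Oasl2 and Rtp4 in both parts, Isg15 and Usp18 in the anterior and Ifi44 in the posterior palate.

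The same gap was smaller or missing in other genes of the pathway's core. Stat2 was at 33.8, 25.3 and 31.2 CPM in anterior tamoxifen replicates against 30.9, 26.6 and 22.2 CPM in controls, and at 32.3, 22.8 and 27.1 CPM in posterior tamoxifen replicates against 28.1, 28.2 and 25.0 CPM in controls. These groups overlapped in both parts of the palate. Irf9 had 31.0, 16.1 and 18.1 CPM in anterior tamoxifen replicates against 25.1, 19.6 and 18.1 CPM in controls, and 27.9, 18.5 and 17.1 CPM in posterior tamoxifen replicates against 16.9, 16.3 and 17.2 CPM in controls. Irf1, a target of interferon gamma signalling, lay between 8.39 and 12.9 CPM in all 12 libraries, with ratios of 1.15 and 0.962 for replicate 1.

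Transcripts of the interferons themselves were at the edge of detection. Of 11 ligand genes (Ifnb1, Ifna1, Ifna2, Ifna4, Ifna5, Ifne, Ifnk, Ifng, Ifnl2, Ifnl3 and Ifnz), 9 had 0 counts in every library, which allows up to 3 counts, or 0.0404 to 0.0743 CPM, in a library. Ifnk and Ifnz had 0 to 5 counts per library. All 11 together had 5, 1 and 6 counts in anterior tamoxifen replicates against 2, 6 and 1 in controls, and 2, 5 and 2 counts in posterior tamoxifen replicates against 8, 4 and 3 in controls. Replicate 1 of the tamoxifen groups, at 5 and 2 counts, was within the range of the other libraries.

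**Figure D4:**
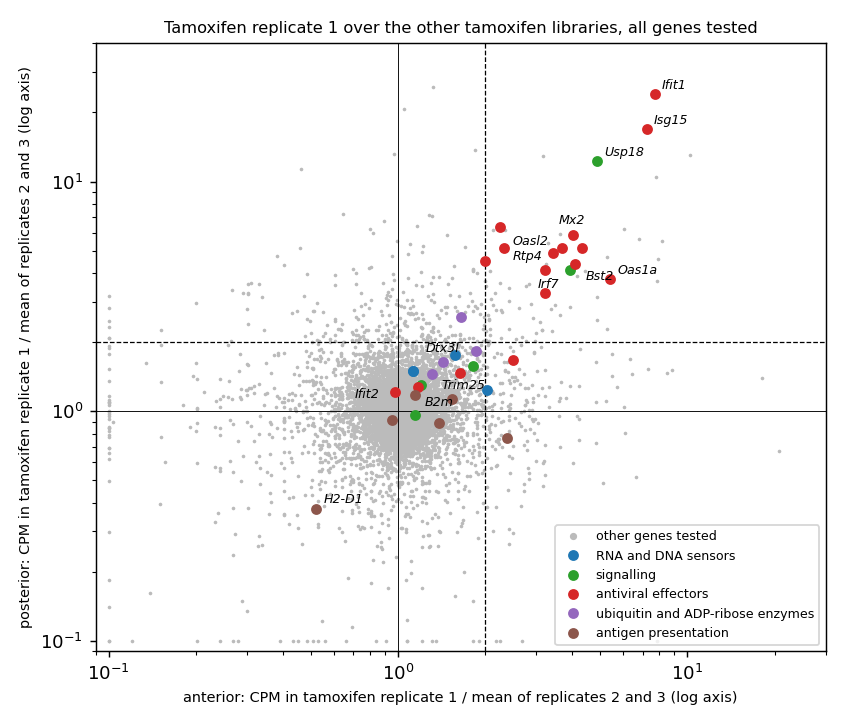
Ratio of replicate 1 to the mean of replicates 2 and 3 in the anterior (x axis) and posterior (y axis) tamoxifen groups for all genes tested, both axes logarithmic, ratios under 0.1 drawn at 0.1, and dashed lines at 2. Irf7, Usp18 and 12 effectors lie above both lines, up to 7.72 and 24.0 for Ifit1, Irf1 and Ifit2 lie near 1 (1.15 and 0.962, and 0.973 and 1.21), Psmb9 is above the line in the anterior group only (2.37 and 0.764), and H2-D1 lies low on both axes (0.521 and 0.377).

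Of the 75 genes at least 2-fold above in replicate 1 of both tamoxifen groups, 14 belonged to the set, 8 to the other interferon pathway genes examined (Gbp2, Gbp3, Gbp7, Irgm2, Ifi27l2a, Ifi204, Slfn8 and Sp100) and 53 to no list. Among these 53, and picked out after their values were seen, were Oas1b, Ifit3b, Ddx60 and Gbp6, which carry the names of interferon-induced families, with ratios of 5.26 and 4.68, 3.48 and 2.91, 3.39 and 2.78, and 6.05 and 6.24 in the anterior and posterior groups. At least 2-fold below in both were 44 genes, none of them a member. Over the 36 tested members, the deviations of both libraries from their group means had a Pearson correlation of 0.88. Over the 12730 genes with a mean log2 CPM above 1 it was 0.01. The members' spread around the group means was wide: the SD of log2 CPM had a median of 0.493 over the 36 members and 0.147 over all genes tested. It was 0.384 over the 29 tested members with a mean of at least 1 CPM. The set was put together because its genes stood high in 1 library of each tamoxifen group. A high correlation and a wide spread follow from that choice, and nothing is read from either.

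White blood cell markers did not show a gap of that size. The summed level of 15 leukocyte markers was 124, 91.2 and 117 CPM in anterior tamoxifen replicates against 93.1, 90.8 and 104 CPM in controls, and 111, 99.2 and 122 CPM in posterior tamoxifen replicates against 98.1, 92.8 and 94.1 CPM in controls. None of the 15 was at 0 in any library, and tamoxifen replicate 3 was as high as or close to replicate 1. Another 9 markers of lymphocytes and plasmacytoid dendritic cells, the main producers of interferon alpha in blood, summed to 0.638 to 4.62 CPM per library, with 1 to 5 of them at 0. Most of the anterior sums was a single gene, Ly6d. It was at 1.59 to 3.94 CPM in anterior and 0.0213 to 0.105 CPM in posterior libraries. Among mesenchyme markers, the sum was 6330, 10280 and 11250 CPM in posterior tamoxifen replicates against 11170, 10090 and 9156 CPM in posterior controls. Most of that difference lay in Col1a1 (4546, 8270 and 9288 CPM under tamoxifen against 9359, 8292 and 7353 CPM in controls). Twist1 (421, 579 and 598 CPM) and Osr2 (116, 147 and 142 CPM) were also lowest in replicate 1 of that tamoxifen group. Shox2 was highest in that library (22.9, 18.6 and 12.7 CPM), and Prrx1 (611, 628 and 569 CPM), Pdgfra (577, 602 and 605 CPM) and Tbx22 (36.5, 33.2 and 38.2 CPM) were about level in it. In the anterior palate the sum was 5761, 4892 and 6865 CPM under tamoxifen against 5802, 6001 and 6323 CPM in controls. The part of cell makeup in the members' levels was not tested.

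A second pattern was seen in the ubiquitin and ADP-ribose enzymes, which were higher in all tamoxifen libraries of each part than in its controls, except for Parp14 in 1 posterior library. This pattern was not particular to them. Of all genes tested, 28.7% in the anterior, 26.5% in the posterior and 20.7% in both parts of the palate had it. Trim25, the ubiquitin ligase that activates the RNA sensor Ddx58, was at 50.8, 38.5 and 38.9 CPM in anterior tamoxifen replicates against 25.1, 25.5 and 24.2 CPM in controls, and at 42.1, 30.2 and 28.0 CPM in posterior tamoxifen replicates against 18.1, 18.5 and 21.7 CPM in controls. No tamoxifen library overlapped a control, and the fold change was 1.72 in both parts by the fit (log2 0.78, SE 0.139 anterior and 0.141 posterior). Dtx3l, a ubiquitin ligase that works in a complex with Parp9, was at 11.2, 7.92 and 7.65 CPM in anterior tamoxifen replicates against 4.95, 3.84 and 2.86 CPM in controls, and at 9.71, 5.72 and 6.18 CPM in posterior tamoxifen replicates against 3.24, 2.82 and 3.38 CPM in controls. Its log2 fold changes were 1.20 (SE 0.228) and 1.20 (SE 0.231), again without overlap.

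Parp9, its ADP-ribosyltransferase partner, was at 8.61, 4.84 and 4.44 CPM in anterior tamoxifen replicates against 3.37, 4.33 and 3.09 CPM in controls, and at 9.92, 5.32 and 5.53 CPM in posterior tamoxifen replicates against 3.51, 3.80 and 3.27 CPM in controls. The groups did not overlap in either part, and replicate 1 was the highest library of each tamoxifen group. Parp14, a mono-ADP-ribosyltransferase, was at 6.45, 4.23 and 3.59 CPM in anterior tamoxifen replicates against 1.68, 2.18 and 1.62 CPM in controls, and at 6.08, 2.61 and 2.10 CPM in posterior tamoxifen replicates against 1.03, 2.51 and 1.45 CPM in controls, where 1 tamoxifen library lay below 1 control. For each of the 4 genes, the mean of replicates 2 and 3 was 1.29 to 2.14 times the control mean. Replicate 1 was 2.03 to 3.65 times the control mean. None of the 4 was among the 14 genes at least 2-fold above in replicate 1 of both tamoxifen groups.

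Among sensors, Ddx58 (RIG-I), which detects viral RNA ends, was at 16.0, 9.80 and 10.5 CPM in anterior tamoxifen replicates against 7.95, 8.20 and 6.32 CPM in controls, and at 18.9, 9.99 and 11.5 CPM in posterior tamoxifen replicates against 7.95, 8.98 and 7.98 CPM in controls, without overlap. Eif2ak2 (PKR), the kinase that halts translation on double-stranded RNA, was at 36.7, 37.1 and 27.9 CPM in anterior tamoxifen replicates against 29.1, 25.7 and 23.7 CPM in controls, and at 38.5, 26.9 and 24.5 CPM in posterior tamoxifen replicates against 25.9, 29.3 and 27.2 CPM in controls. Both of its comparisons overlapped. Dhx58 (LGP2), a regulator of the other RNA helicases, was at 2.84, 2.48 and 2.57 CPM in anterior tamoxifen replicates against 3.52, 3.24 and 4.33 CPM in controls, below all controls. Zbp1, a sensor of Z-form nucleic acid, failed the expression filter, with 24, 3 and 0 counts in anterior tamoxifen replicates against 0, 0 and 3 in controls, and 16, 4 and 4 counts in posterior tamoxifen replicates against 0, 0 and 4 in controls. The effector Ifit2 differed from its relatives Ifit1 and Ifit3: it was at 22.4, 25.2 and 20.8 CPM in anterior tamoxifen replicates against 11.0, 13.2 and 12.8 CPM in controls, and at 18.3, 16.0 and 14.3 CPM in posterior tamoxifen replicates against 12.1, 11.9 and 12.1 CPM in controls. Replicate 1 was 0.973 and 1.21 times the other 2, and no tamoxifen library overlapped a control.

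The summed level of the 6 genes of antigen presentation lay near the controls. It was 61.8 to 80.8 CPM in anterior tamoxifen libraries against 77.1 to 80.0 CPM in controls. In the posterior palate it was 83.5 to 88.0 CPM against 75.5 to 82.5 CPM. Single genes could differ more. B2m, the light chain of all class I molecules and the most abundant member at 62.2 CPM per kb, was at 54.5, 40.3 and 54.7 CPM in anterior tamoxifen replicates against 49.5, 49.3 and 51.2 CPM in controls, and at 66.3, 57.9 and 54.7 CPM in posterior tamoxifen replicates against 55.9, 57.5 and 49.9 CPM in controls. Tap1, which carries peptides into the endoplasmic reticulum, lay between 9.65 and 14.0 CPM in all libraries, and the immunoproteasome subunits Psmb8 and Psmb9 between 0.622 and 2.25 CPM. Psmb9 was at 1.95, 0.627 and 1.02 CPM in anterior tamoxifen replicates against 1.09, 1.64 and 2.06 CPM in controls. H2-D1, a class I heavy chain, ran against the other members: it was at 2.22, 3.98 and 4.55 CPM in anterior tamoxifen replicates against 5.47, 6.19 and 5.48 CPM in controls, and at 2.30, 5.12 and 7.09 CPM in posterior tamoxifen replicates against 5.83, 5.20 and 6.03 CPM in controls. Replicate 1 of both tamoxifen groups held its 2 lowest values of the 12 libraries. The near-identical H2-K1 lay between 4.68 and 7.82 CPM. Reads of class I heavy chains can be split between related genes by the counting, which makes single values of these genes uncertain.

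**Figure D5:**
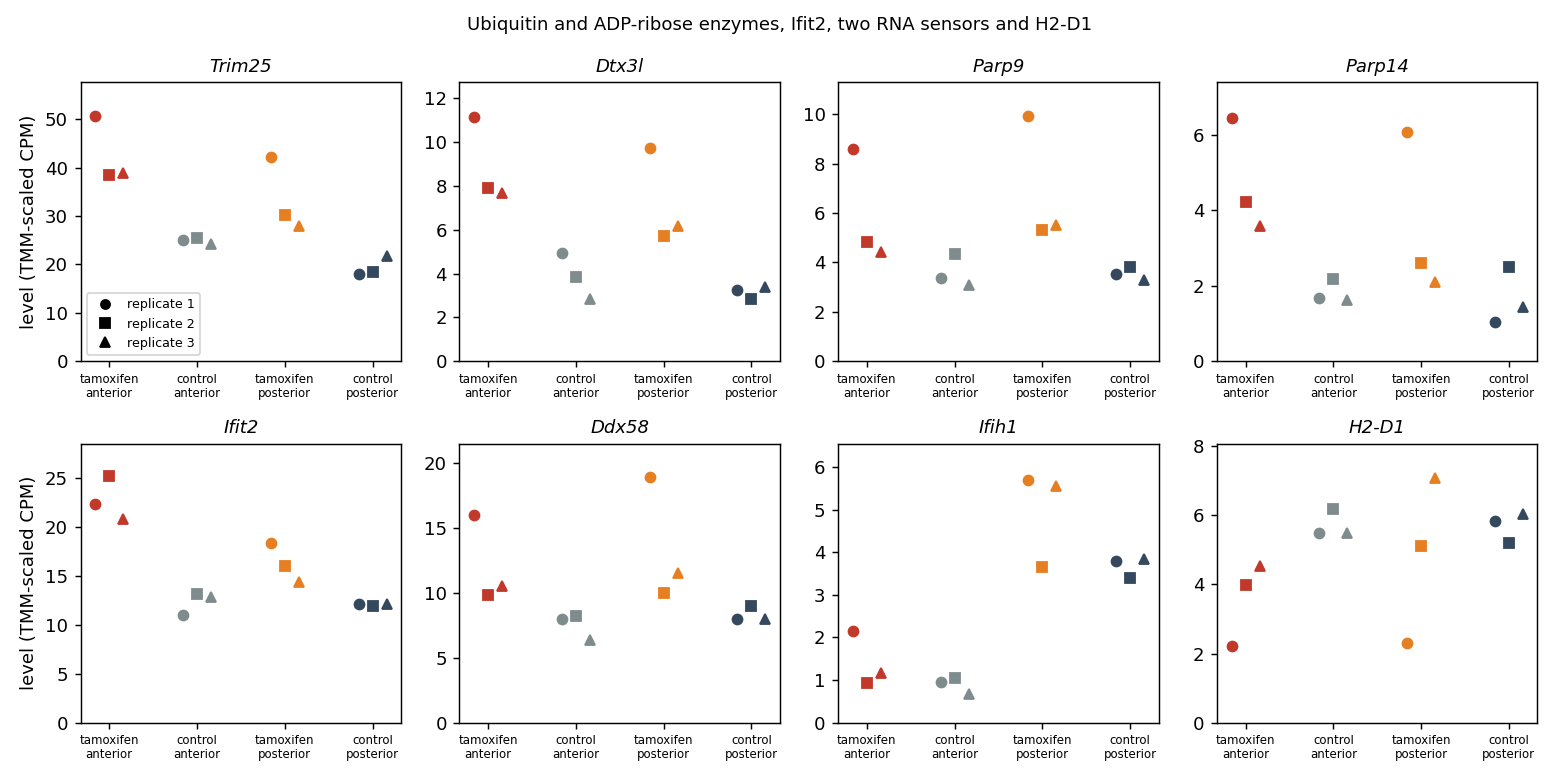
Level (TMM-scaled CPM, linear axes from 0) of Trim25, Dtx3l, Parp9, Parp14, Ifit2, Ddx58, Ifih1 and H2-D1, 1 point per library. Tamoxifen groups lie above their controls without overlap for Trim25, Dtx3l, Parp9, Ifit2 and Ddx58, Ifih1 is low in every anterior library (0.679 to 2.14 CPM) beside the posterior ones (3.39 to 5.70 CPM), and H2-D1 is lowest in replicate 1 of both tamoxifen groups.

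Counted over the fit (edgeR quasi-likelihood, Benjamini-Hochberg adjustment over all 15958 genes), 8 of the 36 tested members were called higher in tamoxifen than in control anterior palate: Ddx58, Eif2ak2, Ifit2, Cmpk2, Trim25, Parp9, Parp14 and Dtx3l. None was called lower. Of all genes 25.6% were called higher and 24.0% lower, so the 8 (22.2%) are near that background, and nothing is read from them since the same contrast led to the choice of the set. In the posterior palate 9 were called higher (Ddx58, Ifit2, Mx1, Oasl1, Oasl2, Trim25, Parp9, Parp14 and Dtx3l) and 0 lower, beside 17.3% and 11.7% of all genes. All tamoxifen libraries were above all controls for 11 tested members in the anterior and 12 in the posterior palate, and 28.7% and 26.5% of all genes did the same. In both parts this held for 7 of the 36 (Ddx58, Ifit2, Oasl2, Rtp4, Trim25, Parp9 and Dtx3l) and for 20.7% of all genes. The median log2 fold change was 0.75 over the members against -0.016 over all genes in the anterior, and 0.85 against 0.022 in the posterior palate. The strongest member of the first pattern, Ifit1, was not called in either part despite log2 fold changes of 1.79 (SE 1.33) and 3.75 (SE 1.53), its SEs being that wide.

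Without replicate 1 of both tamoxifen groups, 6 members were called higher in the anterior palate (Ddx58, Ifit2, Rtp4, Trim25, Parp14 and Dtx3l), where 23.3% of all genes were, and Psmb9, an immunoproteasome subunit, was called lower. In the posterior palate 4 were called higher (Oasl2, Trim25, Parp9 and Dtx3l), beside 9.90% of all genes. The medians over the members fell to log2 0.14 in each part. Trim25 and Dtx3l were called in both parts with and without these libraries, and in each of the 6 fits per part that left out 1 library. After removal of a trend of the counts with transcript length and GC content, 3 members were called higher in the anterior (Ifit2, Trim25 and Dtx3l) and 4 in the posterior palate (Trim25, Parp9, Dtx3l and H2-K1), beside 16.1% and 7.73% of all genes.

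The tamoxifen effects in the 2 parts of the palate were not told apart by the test of their difference. With edgeR 0 of 15958 genes were called (0%), members included. At an unadjusted p under 0.05 there were 2110 genes, 1 of them a member, and DESeq2 called 183 genes and limma-voom 0, none of them a member. The member was Ifit2, with log2 fold changes of 0.89 (SE 0.112) in the anterior and 0.43 (SE 0.112) in the posterior palate.

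Anterior and posterior palate were compared in the controls, a contrast that the choice of the set did not use. Ifih1 (MDA5), the sensor of long double-stranded RNA, was the 1 of 36 members called, and 23.3% of all genes were called in either direction. It was at 0.966, 1.04 and 0.679 CPM in anterior against 3.79, 3.39 and 3.83 CPM in posterior controls, without overlap. This was 4.10-fold lower in the anterior palate (log2 fold change -2.04, SE 0.292, adjusted p = 6.89e-05, edgeR), and it was called under each alternative listed for the fit and with each control library left out. Under tamoxifen Ifih1 was at 2.14, 0.940 and 1.18 CPM in anterior and 5.70, 3.66 and 5.56 CPM in posterior libraries, in the same order. Ddx58, the related helicase, was at 6.32 to 8.20 CPM in anterior and 7.95 to 8.98 CPM in posterior controls and was not called (log2 fold change -0.15, SE 0.229, adjusted p = 0.68). Beside this contrast, all 6 muscle markers were called lower and 6 of 8 epithelial markers higher in anterior controls, with sums of 8.92 to 18.5 against 419 to 448 CPM for muscle and 896 to 1138 against 506 to 563 CPM for epithelium. Their part in the Ifih1 result was not tested.

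Whether other members were called between the control groups depended on the fit. Oasl2 was at 3.74, 3.53 and 4.59 CPM in anterior against 1.43, 1.36 and 1.82 CPM in posterior controls, and Ifi44 at 2.67, 1.31 and 2.90 CPM in anterior against 0.926, 0.621 and 0.643 CPM in posterior controls. Neither overlapped, and edgeR with all 12 libraries and no further term called neither (log2 fold change 1.36, SE 0.691, adjusted p = 0.2 for Oasl2, and 1.65, SE 0.62, adjusted p = 0.079 for Ifi44). With all 12 libraries Ifi44 was called by DESeq2 (adjusted p = 0.044) and by edgeR with the replicate number as a block (adjusted p = 0.0043), and with that block and the length and GC trend removed (adjusted p = 0.0026). Trim25 was called with the trend removed (log2 fold change 0.49, adjusted p = 0.033, edgeR), and with the block as well (adjusted p = 0.021). Of all genes 11.4% were called higher by DESeq2, 10.1% with the block, 14.4% with the trend removed and 13.9% with both. With the 6 control libraries alone, edgeR called 4 of 34 members higher in the anterior palate, near the 10.8% of all genes so called: Oasl2 (log2 fold change 1.36, adjusted p = 2.84e-04), Ifi44 (1.64, 0.0027), Trim25 (0.36, 0.016) and Ifit1 (1.59, 0.026). The same 4 were called without both tamoxifen replicate 1 libraries, where 8.56% of all genes were higher. Ifit1 had 16, 20 and 19 counts in anterior and 8, 4 and 8 counts in posterior controls. Apart from these 4 and Ifih1, no member was called in these fits.

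Receptors and kinases of the pathway, which were not in the set, moved by small amounts. Of the 103 other interferon pathway genes in 6 lists 87 were tested, of which 19 were called higher and 14 lower in anterior tamoxifen palate, and 14 higher and 7 lower in posterior tamoxifen palate (without both replicates 1, 16 and 13 of 88, and 6 and 5 of 88). The shares over all genes were 25.6% and 24.0%, and 17.3% and 11.7% (without both replicates 1, 23.3% and 21.5%, and 9.90% and 7.12%). The receptor chain Ifnar1 was at 162, 155 and 163 CPM in anterior tamoxifen replicates against 141, 139 and 138 CPM in controls, a log2 fold change of 0.20 (SE 0.0597, adjusted p = 0.0093, edgeR). In the posterior palate it was at 167, 176 and 176 CPM under tamoxifen against 156, 154 and 153 CPM in controls (log2 0.16, adjusted p = 0.048, edgeR), a call lost without both replicates 1. Ifnar2 was at 35.4, 31.0 and 37.3 CPM in anterior tamoxifen replicates against 36.4, 39.3 and 36.3 CPM in controls and was not called there (adjusted p = 0.28, edgeR). The kinase Jak1 was at 142, 150 and 145 CPM in anterior tamoxifen replicates against 108, 109 and 96.2 CPM in controls, and at 144, 147 and 141 CPM in posterior tamoxifen replicates against 111, 127 and 117 CPM in controls. It rose in both parts (log2 0.48 and 0.29, adjusted p = 4.58e-05 and 0.0075, edgeR), and its replicate 1 did not stand out (0.966 times the other 2 in the anterior palate). Jak2 also rose (log2 0.51 and 0.27, adjusted p = 1.46e-04 and 0.024), the posterior call being lost without both replicates 1, and Tyk2 was not called in either part (adjusted p = 0.12 and 0.94).

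Irf3, the factor that starts interferon transcription after sensing, fell in both parts. It was at 48.5, 47.1 and 51.6 CPM in anterior tamoxifen replicates against 75.3, 75.7 and 88.9 CPM in controls, and at 46.6, 56.0 and 53.7 CPM in posterior tamoxifen replicates against 69.2, 66.3 and 66.0 CPM in controls. The log2 fold changes were -0.70 (SE 0.0848, adjusted p = 9.14e-06) and -0.37 (SE 0.0846, adjusted p = 0.0054, edgeR), without overlap. In its list of 15 upstream genes, 5 were called higher and 2 lower in the anterior palate, and 3 and 1 in the posterior palate. The shares over all genes were 25.6% and 24.0%, and 17.3% and 11.7%. Without both replicates 1 the upstream counts were 5 and 3, and 1 and 1. The shares over all genes were then 23.3% and 21.5%, and 9.90% and 7.12%. Of the brakes on the pathway, Socs1, an inhibitor of Jak kinases, was at 14.0, 10.3 and 16.7 CPM in anterior tamoxifen replicates against 19.0, 27.5 and 30.3 CPM in controls and fell (log2 -0.91, SE 0.212, adjusted p = 0.003, edgeR). Its posterior levels were 12.3, 17.2 and 17.9 CPM under tamoxifen and 24.0, 18.4 and 26.7 CPM in controls, and it was not called there (adjusted p = 0.067). Rnaseh2a, a subunit of the nuclease that removes RNA from DNA, fell in both parts (log2 -0.57 and -0.43, adjusted p = 1.18e-04 and 0.004, edgeR). Over this list of 10 brakes, 1 was called higher and 5 lower in the anterior palate, and 0 and 3 in the posterior palate, beside 24.0% and 11.7% of all genes lower. Without both replicates 1 the counts were 0 and 4, and 0 and 2, and the calls of Irf3, Socs1 and Rnaseh2a were made there too.

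Of the other interferon-induced genes, Samd9l, a translation inhibitor, was at 3.58, 3.18 and 3.08 CPM in anterior tamoxifen replicates against 1.49, 1.45 and 0.890 CPM in controls and rose (log2 1.37, SE 0.245, adjusted p = 2.63e-04, edgeR). Slfn5 rose in both parts (log2 0.82 and 0.93, adjusted p = 0.0019 and 0.0025), and Iigp1, a GTPase induced by interferon gamma, rose in the posterior palate (log2 1.91, SE 0.402, adjusted p = 0.0032). In the class I pathway the chaperone Canx rose (log2 0.50 and 0.32, adjusted p = 3.84e-05 and 0.0046, edgeR), and so did the trimming peptidase Erap1 (log2 0.64 and 0.61, adjusted p = 6.99e-04 and 0.0035). Of the 11 genes in the class I list, 2 were called higher and 4 lower in the anterior, and 2 and 3 in the posterior palate. The shares over all genes were 25.6% and 24.0%, and 17.3% and 11.7%. Without both replicates 1 the class I counts were 2 and 3, and 2 and 2. The shares over all genes were then 23.3% and 21.5%, and 9.90% and 7.12%. In 41 tested interferon-induced genes outside the set, 7 were called higher and 3 lower in the anterior palate, and 6 and 0 in the posterior palate, beside 25.6% and 24.0%, and 17.3% and 11.7%, of all genes. Without both replicates 1 they were 6 and 3, and 2 and 0, of 42, and the calls of Samd9l, Slfn5, Iigp1, Canx and Erap1 given above were made there too.

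Between the control groups 8 of the 87 were called higher and 4 lower in the anterior palate, beside 10.2% and 13.1% of all genes, and 5 and 4 of 88 without both tamoxifen replicate 1 libraries. Samd9l was at 1.49, 1.45 and 0.890 CPM in anterior against 2.78, 3.25 and 4.25 CPM in posterior controls (log2 -1.43, SE 0.246, adjusted p = 4.11e-04, edgeR). Plscr1, a lipid scramblase, was lower by log2 -0.48 (adjusted p = 0.0021) and Mb21d1 (cGAS), the sensor of cytosolic DNA, by log2 -0.62 (adjusted p = 0.0081). H2-Q4, a class I gene, was higher by log2 0.80 (adjusted p = 0.0032), Il10rb, a receptor chain for interferon lambda, by log2 0.55 (adjusted p = 0.0061), and Samhd1, a nucleotide hydrolase, by log2 0.25 (adjusted p = 0.018, edgeR). All 6 were also called without both tamoxifen replicate 1 libraries.

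Outside every list, the genes whose deviations from the group means followed the members' mean deviation most closely over 12 libraries were Galk2, Diexf, Fam26e, 1700120K04Rik, Tmem194, Cnr1, Epb4.1l5, Rtn3, Ms4a6b and Nup43, with Pearson r from 0.958 to 0.873 among 13524 candidates. Without the tamoxifen replicate 1 libraries r for these 10 ranged from -0.40 to 0.672, so the likeness rested on those libraries. Their own gaps could be small: Galk2 was at 29.1, 25.9 and 26.2 CPM in anterior tamoxifen replicates against 29.8, 28.9 and 29.7 CPM in controls, and at 32.6, 28.4 and 28.3 CPM in posterior tamoxifen replicates against 27.9, 28.3 and 27.0 CPM in controls.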

How the data were processed

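RNA-seq was analysed for 12 libraries (4 groups of 3). The values deposited by the authors are raw counts per gene symbol (24391 symbols). Reads were processed with HISAT2 and StringTie on genome build mm9, per the submitters' processing notes. Tool versions, how reads were counted, gene models and strandedness were not given in the sources used here. Even values made up 57.1 to 60.1% of counts from 1 to 100, as when mates of a pair are counted separately, which makes counting errors larger than the counts alone show. Within groups, counts of every pair of libraries differed beyond sampling noise (chi-square per degree of freedom 9.89 or more), so none is a duplicate.

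The 38 genes and all other lists were chosen with earlier results of these data known. Levels are CPM after TMM scaling, and levels per kilobase used the longest GENCODE transcript. In R 4.3.3, edgeR 4.0.16 fitted a robust quasi-likelihood model with 1 mean per group to the 15958 genes passing filterByExpr (8 residual degrees of freedom). A call means a p below 0.05 after Benjamini-Hochberg adjustment over all of them. Alternatives were limma-voom (limma 3.58.1), DESeq2 1.42.0, other scalings and filters, a replicate block, removal of a length and GC trend (natural splines, 4 degrees of freedom each), the libraries of a contrast alone, leaving out each library and, added after seeing the data, leaving out both tamoxifen replicate 1 libraries. The fits were tested on simulated data. Same-numbered libraries correlated at -0.16 to 0.30 over 18 pairs, so the number was not used as a pairing.

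Values in every library are given for the 8 members with the largest ratio of the highest library to the other 2 of its group (mean of at least 1 CPM), those called between control groups, the 5 highest per kilobase and at least 1 per role. Of other pathway genes, the receptors, Jak1, Tyk2, Socs1, the ligands and up to 6 called per contrast are named, and 1 gene that this rule names is not reported here. Promoter sequences and motif matches used RefSeq's GRCm38.p6 table, and 9 members had no entry in it.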

Additional observations from a re-analysis of the deposited data

How the results depend on the processing

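With both tamoxifen replicate 1 libraries left out, an alternative chosen after seeing the data, 1 anterior member was called lower, beside 21.5% of all genes. The members' median log2 fold change was 0.144 anterior and 0.136 posterior. Of the members 4 were called higher in the posterior palate and 4 in the region contrast in controls, beside 9.90% and 8.56% of all genes. With the length and GC trend removed as well, 4 anterior and 3 posterior members were called higher, beside 2106 and 688 of all genes. The medians were 0.117 and 0.218, and the anterior log2 fold change of Eif2ak2 reversed to -0.0482. With the trend removed alone, 3 and 4 were called higher, and 1 in the region contrast, beside 2570, 1233 and 2302 of all genes. The replicate block gave 1 anterior member lower (H2-D1) and 1 higher in the region contrast, where 1619 of all genes were higher. With the trend removed, the block gave 4 higher in the anterior palate, 8 in the posterior palate and 2 in the region contrast. Of all genes 2473, 1176 and 2216 were higher in these fits. The posterior count was thus 4 with the trend removed alone and 8 with the block added. The block alone gave 8 anterior and 10 posterior members higher, beside 4033 and 2721 of all genes. limma-voom and the libraries of the contrast alone each gave 1 anterior member lower. In the region contrast DESeq2 gave 1 higher and the libraries of that contrast alone gave 4, beside 11.4% and 10.8% of all genes. A filter of 1 CPM gave a median of 0.131 for the region contrast (0.303 with the usual filter) and of 0.44 for the posterior palate, where the trend removed with the block gave 0.531 (0.852 without either). The ratio of replicate 1 to the other 2 was 2.08 and 2.38 from mean log2 CPM, and in the posterior palate 1.59 by RLE, 1.68 by total count scaling and 1.56 with the trend removed. The causes were not tested. Leaving out each library gave 4 to 10 members higher, 0 to 1 lower and a median of 0.148 to 0.877 in the anterior palate, 2 to 10 higher and a median of 0.145 to 1.14 in the posterior palate, a median of -0.597 to 0.337 for the difference of the effects and of 0.133 to 0.272 for the region contrast. In these fits 3518 to 3980 of all genes were called higher in the anterior and 1784 to 2439 in the posterior palate. The lowest medians of the tamoxifen contrasts were those without tamoxifen replicate 1. The count of 8 anterior members became 4 without it and also without control replicate 3, and the count of 9 posterior members became 2 without it, 3 without control replicate 1 and 4 without control replicate 3. Over all genes, in the same order, 4089 anterior genes called higher became 3794 and 3518, and 2762 posterior genes became 1796, 1784 and 1852. The libraries of the contrast alone were not run for the difference of effects, which uses all 12. Low counts limit Ifit1, Isg15, Mx1, Oas1a, Oas2, Oasl1 and Zbp1 outside replicate 1, and 3 libraries a group limit every comparison.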

Other observations

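Of the 53 genes on no list that were at least 2-fold above the other 2 libraries in replicate 1 of both tamoxifen groups, 2 are given here, chosen after their values were seen. Slc7a11, the cystine transporter, had the highest mean of the 53 (10.3 CPM). It was at 17.2, 5.51 and 6.66 CPM in anterior tamoxifen replicates against 2.63, 17.0 and 12.6 CPM in controls, and at 15.1, 4.59 and 3.86 CPM in posterior tamoxifen replicates against 14.8, 12.1 and 12.2 CPM in controls. In the posterior palate replicate 1 was thus close to the controls, at 1.16 times their mean. The other 2 posterior tamoxifen libraries were below all controls, at 0.324 times that mean. Anterior controls spread from 2.63 to 17.0 CPM. Against their mean, replicate 1 was at 1.60 times and the other 2 anterior tamoxifen libraries at 0.567 times, which was still above the lowest control. Scd3, a fatty acid desaturase, was at 2.05, 0.224 and 0.178 CPM in anterior tamoxifen replicates against 0.372, 0.629 and 0.773 CPM in controls, and at 2.27, 0.170 and 0.178 CPM in posterior tamoxifen replicates against 0.484, 0.549 and 0.124 CPM in controls. Its replicate 1 was 3.46 and 5.87 times the control mean, and the other 2 libraries, on 8 to 10 counts each, were 0.339 and 0.452 times.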
